A study of Homo sapiens with 5 samples.

Results

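Glycolysis splits 1 glucose molecule into pyruvate in the cytosol, and several of its steps can be run by more than 1 isozyme, an enzyme of the same reaction made from another gene. The 10 genes described here cover 7 steps of the pathway: the hexokinases HK1 and HK2, the glucose-6-phosphate isomerase GPI, the aldolases ALDOA and ALDOC, the triosephosphate isomerase TPI1, the dehydrogenase GAPDH, the phosphoglycerate kinase PGK1, and the enolases ENO1 and ENO2. They were chosen by symbol, and each matched 1 of the 26475 gene rows. All 10 passed the filter on low counts that left 13940 genes, with 201 or more counts in every library. RNA came from MDA-MB-231, an established human breast cancer line, with 1 library per condition. Cells were kept for 1 day at 20% O2, for 1 day at 1% O2, for 10 days at 20% O2, for 10 days at 1% O2, or for 10 days at 1% O2 and then 10 days at 20% O2 (reoxygenated). The labels name no genetic change and no drug in any of the groups, and do not say whether the libraries came from separate cultures.

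When oxygen is low, hypoxia-inducible factors (HIF) accumulate and bind a short core motif in DNA, and genes of glycolysis are among their textbook targets. HK2, ALDOC and ENO2 are known as isozymes with a restricted distribution: HK2 is the inducible hexokinase of muscle and of many tumours, and ALDOC and ENO2 are the aldolase and enolase typical of brain. HK1, ALDOA and ENO1 are the widely expressed forms. GAPDH and PGK1 are also used as reference genes in expression assays.

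Levels are given in CPM, counts scaled to library size with TMM factors that adjust for composition, and differences between libraries are log2 differences. A difference of at least 1 in size, which is 2-fold, is called past the size rule. Because each condition had 1 library, such a difference has no replicate check and compares libraries, not conditions. Intervals in brackets are exact 95% intervals of a count ratio (Clopper-Pearson, or a conditional odds ratio for the ratio of 2 genes). Intervals of a difference between the days use a normal approximation on log counts. All cover counting error only. Reads carried no molecular identifiers, so these intervals may be too narrow. In RNA of whole cultures, fewer cells that express a gene and less RNA per cell cannot be told apart.

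Library totals ran from 7719807 to 12544941 estimated counts, with the lowest in the reoxygenated cells. Of 3 HIF targets, CA9 and NDRG1 were higher in both 1% O2 libraries than in the other 3. CA9 had 53 and 560 counts at 20% and 1% O2 on day 1, 104 and 717 on day 10, and 29 after reoxygenation. VEGFA, the vascular growth factor, was at 90.3 and 165 CPM on day 1 and 78.3 and 444 on day 10. After reoxygenation VEGFA was at 164 CPM, just below 1% O2 on day 1 and above 20% O2 on day 10 by 1.06. Of the markers set for the line, VIM had 8945 counts or more, CD44 5818 or more and AXL 6065 or more in each library, but SPARC had 10 to 15. Of the markers set as low, ESR1 and PGR had 0 to 4 counts, CDH1 0 to 13, whereas ERBB2 (421 to 597), EPCAM (121 to 303) and KRT19 (781 to 1508) were measurable. Neuronal markers were checked because ALDOC and ENO2 are brain isozymes. SNAP25 had 0 counts in the 5 libraries, and the summed level of the 5 neuronal markers was 31.5 CPM after 10 days at 1% O2 and 32.0 to 50.1 CPM in the other libraries. TUBB3 carried most of that sum. Without it the other 4 summed to 4.31 CPM after 10 days at 1% O2 and to 1.48 to 2.50 CPM elsewhere, and RBFOX3 had 28 counts there and 2 to 9 elsewhere. In that same library, where ALDOC and ENO2 were highest, 4 fibroblast markers summed to 32.5 CPM (9.54 to 15.1 elsewhere), with PDGFRB at 182 counts (45 to 58 elsewhere) and DCN at 0. The 3 blood markers summed to 6.52 CPM (2.89 or less elsewhere), with CD3E at 0 in the 5 libraries, and the 3 endothelial markers to 2.59 CPM (1.11 to 2.26 elsewhere). The part of these levels in the members' values was not tested.

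The promoters of 5 members are shown because these genes either moved most at 1% O2 (HK2, ALDOC, ENO2 and PGK1) or, as the common enolase, moved little (ENO1). Each window is from RefSeq (GRCh38.p14), written 5′ to 3′ on the gene's own strand, from 250 bases before the start site to 50 after it. Capitals mark matches to ACGTG or GCGTG, the forms of the HIF core motif, on either strand, so that the reverse strand reads as CACGT or CACGC.
HK2 (chr2:74833877-74834176, + strand): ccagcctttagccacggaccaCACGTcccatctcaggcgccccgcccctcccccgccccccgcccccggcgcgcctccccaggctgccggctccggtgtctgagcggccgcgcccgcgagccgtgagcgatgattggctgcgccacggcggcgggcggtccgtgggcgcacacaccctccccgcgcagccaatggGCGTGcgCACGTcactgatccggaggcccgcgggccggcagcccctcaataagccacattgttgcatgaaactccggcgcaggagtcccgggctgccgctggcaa
ALDOC (chr17:28576846-28577145, - strand): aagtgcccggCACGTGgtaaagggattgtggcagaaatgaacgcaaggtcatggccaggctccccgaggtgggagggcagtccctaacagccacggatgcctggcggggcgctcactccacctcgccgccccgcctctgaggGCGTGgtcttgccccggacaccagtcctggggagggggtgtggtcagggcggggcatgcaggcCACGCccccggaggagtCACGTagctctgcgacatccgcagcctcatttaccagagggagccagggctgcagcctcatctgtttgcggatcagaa
ENO2 (chr12:6914330-6914629, + strand): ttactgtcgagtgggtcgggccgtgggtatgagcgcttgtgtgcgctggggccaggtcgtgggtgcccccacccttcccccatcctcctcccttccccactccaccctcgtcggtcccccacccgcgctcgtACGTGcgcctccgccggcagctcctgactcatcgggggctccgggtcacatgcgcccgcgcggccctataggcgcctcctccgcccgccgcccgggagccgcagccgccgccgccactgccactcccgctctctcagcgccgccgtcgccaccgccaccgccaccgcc
PGK1 (chrX:78103998-78104297, + strand): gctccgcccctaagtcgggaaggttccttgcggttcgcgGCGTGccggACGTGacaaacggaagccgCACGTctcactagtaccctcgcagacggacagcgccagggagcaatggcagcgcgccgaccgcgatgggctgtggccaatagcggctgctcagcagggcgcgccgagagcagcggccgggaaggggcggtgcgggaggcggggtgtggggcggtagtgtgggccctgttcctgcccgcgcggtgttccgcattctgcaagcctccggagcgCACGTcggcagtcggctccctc
ENO1 (chr1:8878637-8878936, - strand): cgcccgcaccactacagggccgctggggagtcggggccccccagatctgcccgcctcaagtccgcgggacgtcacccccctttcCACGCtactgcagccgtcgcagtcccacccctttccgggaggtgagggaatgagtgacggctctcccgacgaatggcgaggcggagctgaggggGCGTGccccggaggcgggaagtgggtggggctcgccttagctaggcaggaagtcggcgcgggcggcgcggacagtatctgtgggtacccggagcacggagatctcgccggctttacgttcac
HK2 held 3 matches in this window, ALDOC 5, ENO2 1, PGK1 4 and ENO1 2. An uninterrupted CACGTG, as in ALDOC, counts as a match on each strand. A further HK2 window, at chr2:74834920-74835219, held 6 matches. GPI held 1 match and GAPDH 2, and the several windows of ALDOA, TPI1 and HK1 held 1 to 2, 0 to 2 and 0 to 1. Of 35116 promoter windows of this length, 48.4% held at least 1 match to either form and 21.4% held ACGTG. Members that moved little, such as ENO1 and GAPDH, thus held matches too, and a match is a description of letters, not a binding site.

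After 1 day at 1% O2, each of the 10 genes had a higher level than at 20% O2, by log2 differences of 0.22 to 2.13 with a median of 0.48. The median over the 13940 genes was 0.00. Members past the size rule were ALDOC and PGK1, that is 2 of 10, where 2.12% of genes were higher. After 10 days the members had spread: 7 were above 0 and 3 below, with a median of 0.24 against 0.02 over all genes. HK2, ALDOC and ENO2 were past the size rule at day 10, 3 of 10, where 14.4% of genes were higher. None of the 10 was lower past the rule on either day, where 0.839% and 7.04% of genes were. Between both 20% O2 libraries, which differ by 9 days in culture and not in oxygen, no member passed the rule, and 4.37% of genes did. The comparison of day 1 shares its 20% O2 library with this pair. Between both 1% O2 libraries no member passed the rule either, where 20.8% of genes did, and ENO2 was nearest to it at 0.98. The largest member difference between the 20% O2 libraries was 0.61, for ALDOC, and 7.66% of all genes had a higher one. Among the 2552 genes with a mean of at least 100 CPM, which leave out ALDOC, 95% differed by less than 0.44 between those libraries.

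**Figure D1:**
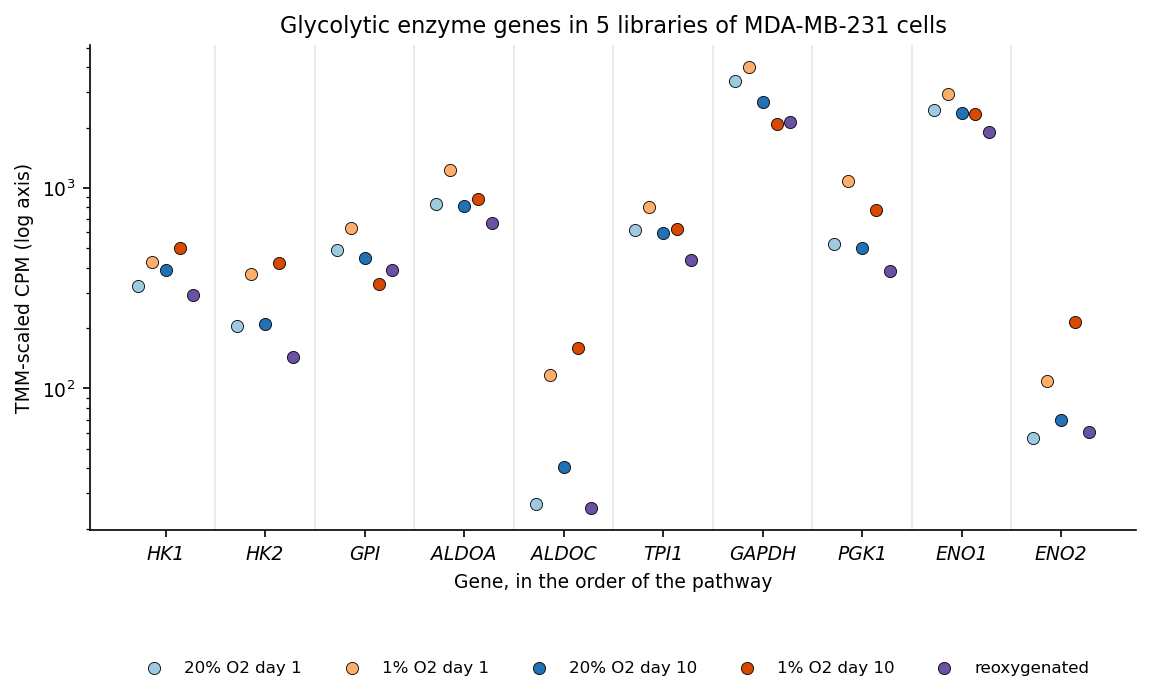
Level of each gene in TMM-scaled CPM (log axis), 1 point per library, in the order of the pathway. In 6 genes the highest point is the 1% O2 library of day 1, in 4 (HK1, HK2, ALDOC, ENO2) it is that of day 10, and in 7 the reoxygenated library is the lowest with TMM factors.

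HK1 and HK2 phosphorylate glucose, the entry step. HK2 (chromosome 2, 74833981 to 74893359, plus strand) was at 206 CPM at 20% O2 and 374 at 1% O2 on day 1. On day 10 it was at 209 and 420 CPM, and in reoxygenated cells at 144. Both 1% O2 libraries thus lay above the 3 libraries at 20% O2. The differences were 0.86 (0.79 to 0.94) on day 1 and 1.01 (0.94 to 1.08) on day 10, or 1.82-fold and 2.01-fold. The day 10 value lies at the edge of the size rule, and it was 0.98 with no filter and 0.98 on the deposited normalized values. HK1 (chromosome 10, 69269984 to 69401884) was at 325 and 429 CPM on day 1, 391 and 501 on day 10, and 291 after reoxygenation. Its libraries stood in the same order as those of HK2, over a narrower range, with differences of 0.40 (0.34 to 0.47) and 0.36 (0.30 to 0.41).

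Within a library the ratio of 2 isozyme genes needs no scaling. HK2 made up 38.8% of the HK1 and HK2 counts at 20% O2 on day 1 and 46.6% at 1% O2, and 34.8% and 45.6% on day 10. After reoxygenation it made up 33.2%. The log2 ratio of HK2 over HK1 was higher at 1% O2 by 0.46 (0.36 to 0.56) on day 1 and by 0.65 (0.56 to 0.74) on day 10. Per length of transcript (GENCODE principal transcripts of 3605 bases for HK1 and 5772 for HK2), HK1 stayed the more abundant gene in each library, by 1.84-fold at 1% O2 on day 1 to 3.23-fold after reoxygenation. Of other hexokinase genes, HK3 had 0 counts in the 5 libraries and HKDC1 had 21 to 40. A count of 0 allows up to 3 counts, or 0.239 to 0.389 CPM.

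ALDOA and ALDOC cleave fructose 1,6-bisphosphate into triose phosphates. ALDOC (chromosome 17, 28573115 to 28577264, minus strand) was the member with the widest range. It was at 26.6 CPM at 20% O2 and 117 at 1% O2 on day 1, at 40.6 and 160 on day 10, and at 25.3 after reoxygenation. Both 1% O2 libraries lay above the others with no overlap, and the reoxygenated library was level with 20% O2 at day 1, by a difference whose interval holds 0. The differences were 2.13 (1.95 to 2.33) on day 1 and 1.98 (1.83 to 2.13) on day 10, or 4.37-fold and 3.93-fold. On day 1 ALDOC ranked 31 of 13940 genes from the highest, and on day 10 it ranked 531, since the other genes had spread more widely. ALDOA (chromosome 16, 30064164 to 30070457) was at 829 and 1229 CPM on day 1, 810 and 877 on day 10, and 666 after reoxygenation. Its difference was 0.57 (0.53 to 0.61) on day 1 and 0.11 (0.07 to 0.16) on day 10.

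ALDOC made up 3.11% (2.76 to 3.49) of the ALDOA and ALDOC counts at 20% O2 and 8.69% (8.24 to 9.16) at 1% O2 on day 1. On day 10 it made up 4.77% and 15.4%, and after reoxygenation 3.66%. The log2 ratio of ALDOC over ALDOA was higher at 1% O2 by 1.57 (1.38 to 1.77) on day 1 and 1.87 (1.71 to 2.02) on day 10. Per length, ALDOA still exceeded ALDOC in the library where they were closest, by 6.78-fold after 10 days at 1% O2, and by 38.6-fold at 20% O2 on day 1. With both genes summed, aldolase counts were higher at 1% O2 by 0.65 on day 1 and 0.29 on day 10.

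ENO1 and ENO2 make phosphoenolpyruvate. ENO2 (chromosome 12, 6913745 to 6923698) was at 56.6 CPM at 20% O2 and 109 at 1% O2 on day 1, at 69.8 and 214 on day 10, and at 60.8 after reoxygenation. The 1% O2 library of day 10 stood alone at the top, followed by that of day 1, and the 3 libraries at 20% O2 lay below both. The differences were 0.94 (0.80 to 1.09) on day 1 and 1.61 (1.50 to 1.73) on day 10, or 1.92-fold and 3.06-fold. ENO2 had the highest chronic minus acute difference of the 10 genes, 0.68 (0.49 to 0.86). ENO1 (chromosome 1, 8861000 to 8879250) was at 2459 and 2946 CPM on day 1, 2375 and 2345 on day 10, and 1895 after reoxygenation. Its difference was 0.26 (0.24 to 0.28) on day 1 and −0.02 (−0.04 to 0.01) on day 10. With library totals that day 10 value was 0.11, and with the 5 CPM filter 0.06, so no direction is given for it.

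ENO2 was 2.25% of the ENO1 and ENO2 counts at 20% O2 and 3.56% at 1% O2 on day 1, 2.85% and 8.36% on day 10, and 3.11% after reoxygenation. The log2 ratio of ENO2 over ENO1 was higher at 1% O2 by 0.68 (0.53 to 0.83) on day 1 and by 1.64 (1.52 to 1.75) on day 10. Of the 3 isozyme ratios, this one differed most between the days, by 0.96 (0.77 to 1.14), against 0.30 (0.05 to 0.54) for the aldolases and 0.19 (0.06 to 0.33) for the hexokinases. Per length, ENO1 exceeded ENO2 by 13.2-fold after 10 days at 1% O2 and by 52.3-fold at 20% O2 on day 1. Summed enolase counts differed by 0.28 on day 1 and 0.07 on day 10. ENO3, the muscle enolase, had 96 and 93 counts on day 1 and 101 and 191 on day 10, a difference of 1.13 (0.80 to 1.51) on day 10.

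**Figure D2:**
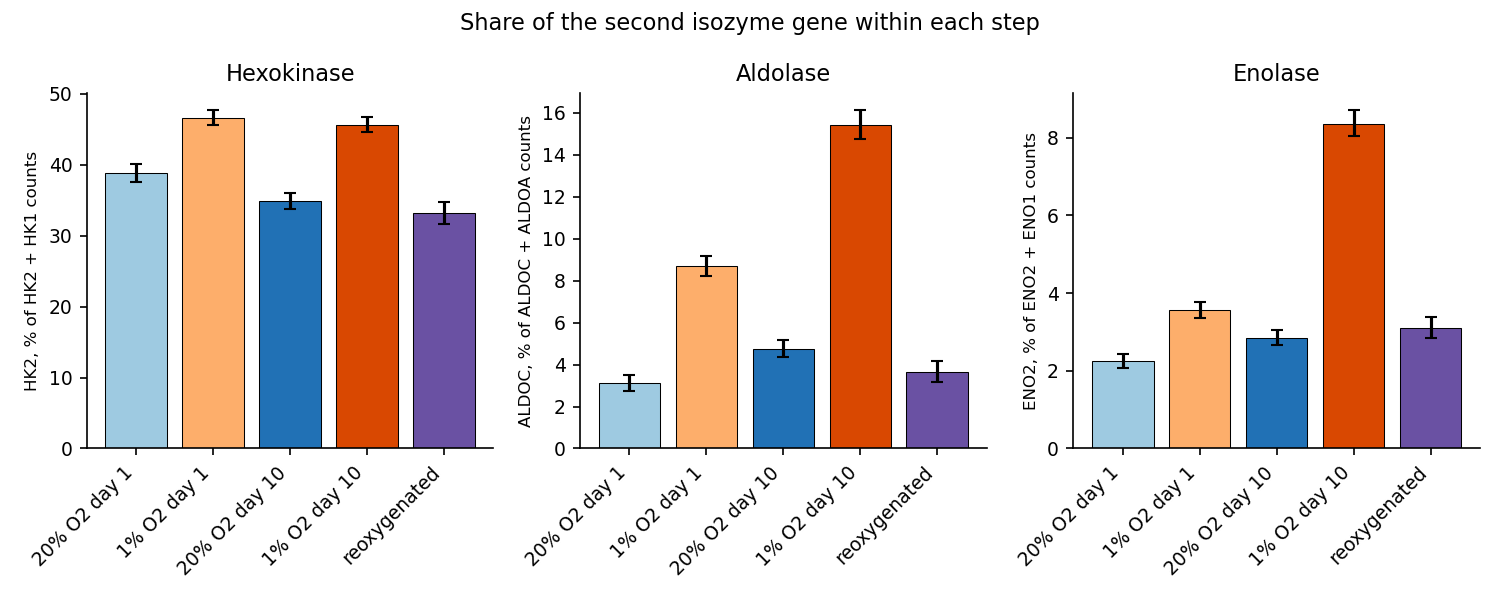
Counts of HK2, ALDOC and ENO2 as a percentage of the counts of both isozyme genes of the step, by library, with 95% Clopper-Pearson intervals (counting error only). Each share is higher in both 1% O2 libraries than in the other 3, and ALDOC reaches 15.4% and ENO2 8.36% after 10 days at 1% O2.

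GPI, which converts glucose 6-phosphate to fructose 6-phosphate, and GAPDH, which oxidizes glyceraldehyde 3-phosphate, had opposite signs on the 2 days. GPI (chromosome 19, 34359480 to 34402413) was at 488 CPM at 20% O2 and 631 at 1% O2 on day 1, then at 449 and 333 on day 10, and at 391 after reoxygenation. Its difference was 0.37 (0.32 to 0.42) on day 1 and −0.43 (−0.50 to −0.37) on day 10. GAPDH (chromosome 12, 6533927 to 6538374) was at 3433 and 4002 CPM on day 1, 2688 and 2090 on day 10, and 2145 after reoxygenation. Its difference was 0.22 (0.20 to 0.24) on day 1 and −0.36 (−0.39 to −0.34) on day 10. Both genes were highest at 1% O2 on day 1. GPI was lowest at 1% O2 on day 10, whereas for GAPDH that library and the reoxygenated one changed places with the scaling, and none of these differences passed the size rule. Between the days at 1% O2, GPI was lower by −0.92 and GAPDH by −0.94.

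TPI1, which interconverts the triose phosphates, was at 618 and 803 CPM on day 1, 593 and 626 on day 10, and 437 after reoxygenation. Its differences were 0.38 (0.33 to 0.42) and 0.08 (0.03 to 0.13). PGK1 (chromosome X, 77910739 to 78129296), which makes ATP from 1,3-bisphosphoglycerate, was at 526 CPM at 20% O2 and 1080 at 1% O2 on day 1, 503 and 779 on day 10, and 388 after reoxygenation. Both 1% O2 libraries lay above the others, and day 1 above day 10. The differences were 1.04 (0.99 to 1.09) and 0.63 (0.58 to 0.68). PGK1 was therefore past the size rule on day 1 and not on day 10, and its chronic minus acute difference was −0.41 (−0.48 to −0.34). Within libraries, the log2 ratio of PGK1 over the reference gene ACTB was higher at 1% O2 by 1.09 on day 1 and 1.33 on day 10. Over TBP the PGK1 ratio was higher by 1.14 and 1.29, and over PPIA by 1.14 and 1.07. Which day had the larger PGK1 difference thus depended on the scaling.

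**Figure D3:**
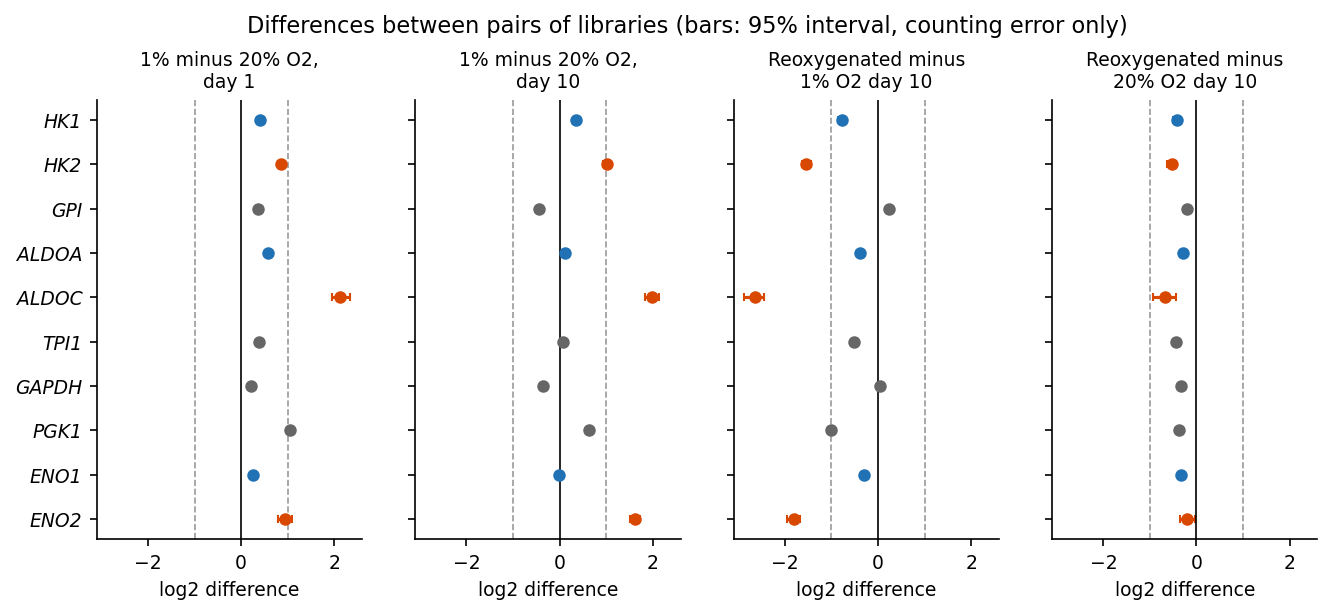
Log2 differences between 4 pairs of libraries for each gene, with 95% intervals for counting error only. HK2, ALDOC and ENO2 are in orange, their common partners HK1, ALDOA and ENO1 in blue, and dashed lines mark the size rule. All 10 points lie right of 0 on day 1 and left of 0 for reoxygenated minus 20% O2 at day 10.

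In reoxygenated cells, compared with 10 days at 1% O2, HK2 (−1.54), ALDOC (−2.65), PGK1 (−1.01) and ENO2 (−1.81) were lower past the size rule, 4 of 10, where 11.2% of genes were. The interval for PGK1 was −1.07 to −0.95. GPI was higher by 0.23 (0.16 to 0.30). GAPDH differed by 0.04, and by −0.01 with library totals and −0.02 with the 5 CPM filter. Compared with the 20% O2 library of day 10, each of the 10 genes was lower after reoxygenation, by −0.20 (ENO2) to −0.68 (ALDOC) with a median of −0.35, against 0.00 over all genes. Of 16 other genes used as references, 14 were also lower, with a median of −0.11, and ACTB was at −0.43. Relative to ACTB, the log2 ratios of GAPDH (0.11), PGK1 (0.06) and ENO2 (0.24) were higher after reoxygenation, and those of HK2 (−0.10) and ALDOC (−0.25) lower. The sign depended on the reference gene. Relative to TBP, GAPDH (−0.15) and PGK1 (−0.20) were lower, and relative to PPIA they differed by 0.07 and 0.01. HK2 was at −0.53 (−0.64 to −0.43) and TPI1 at −0.44 (−0.50 to −0.38). None passed the size rule, where 1.41% of genes were lower. The reoxygenated library was the shallowest, and the part of depth in these values was not tested. Reoxygenated cells had 10 days at 1% O2 before their 10 days at 20% O2, and no 20% O2 library had the same total time. Time in culture and reoxygenation therefore cannot be told apart here. Both comparisons use the reoxygenated library. The difference between 1% and 20% O2 at day 10 shares its 1% O2 library with the first comparison. It shares its 20% O2 library with the second, so these differences are not independent. The 10 genes together took 0.865% of counts at 20% O2 and 1.13% at 1% O2 on day 1, 0.794% and 0.890% on day 10, and 0.663% after reoxygenation.

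Of the 40 pairs of neighbouring libraries in the order of level of each gene, 6 had an interval of the difference that holds 0. These were the 20% O2 libraries of day 1 and day 10 for HK2 and ALDOA, reoxygenated cells and 20% O2 at day 1 for ALDOC and ENO2, 1% O2 at day 10 and 20% O2 at day 1 for TPI1, and both day 10 libraries for ENO1.

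Oxygen was tested over the 4 libraries of day 1 and day 10 with edgeR's quasi-likelihood test, with the day as a term and Benjamini-Hochberg adjustment over 13011 genes. ALDOC rose at 1% O2, with an edgeR log2 change of 2.07 ± 0.27 (SE) and an adjusted p of 2.48e-05, and was higher in both pairs. ENO2 rose by 1.30 ± 0.28 (SE), with an edgeR adjusted p of 0.0107, and was also higher in both pairs. These are 2 of the 10 genes, where 0.899% of genes rose and 0.0999% fell. HK2 had a log2 change of 0.95 (SE 0.28, adjusted p = 0.117) and PGK1 of 0.85 (SE 0.31, adjusted p = 0.235) in the edgeR test, and neither passed. The other 6 had changes of −0.06 (GAPDH) to 0.40 (HK1) and adjusted p of 0.612 or more.

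The edgeR test has 1 residual degree of freedom and borrows 29.8 prior degrees of freedom from other genes. That residual is the difference of the oxygen change between the days, not a spread of replicates. The test fits 1 oxygen change over both days, so that the opposite signs of GPI and GAPDH average to a change near 0. In fits of 3 libraries, which drop the day term, edgeR gave ALDOC an adjusted p of 1.00 when either 20% O2 library was left out. In both of those edgeR fits 0 genes passed, with 143 (day 1 library left out) and 258 (day 10 library left out) at an unadjusted p under 0.05. The arm left with 1 library is assumed to vary like the other. ENO2 had an adjusted p of 1.00 in the same edgeR fits and 0.314 with the day 10 library at 1% O2 left out. With the day 1 library at 1% O2 left out, 5 members rose, among them HK1 (adjusted p = 0.0467), HK2 (0.00199) and PGK1 (0.0150). With the day 10 library at 1% O2 left out, PGK1 rose (0.0292) beside ALDOC (0.0134). Over 12 alternatives the log2 change of ALDOC ran from 1.79 to 2.42 and that of ENO2 from 0.78 to 1.81. The fits on reads recovered from the normalized table and with pseudogene rows summed nearly repeat the main fit and are no separate check. In the edgeR fit of the 4 libraries without the day term, neither ALDOC nor ENO2 passed. With library totals, and with the 5 CPM filter, the edgeR fit with the day term called ALDOC and not ENO2.

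Sequence shared with other genes bears on how reads were assigned. HK1 and ALDOC shared no 50-base word of their principal transcript with another GENCODE gene, and ENO1 and ENO2 shared 0.0436% and 0.036% of theirs with each other. No other member shared a word with another member. ALDOA shared 81.6% of its words, with 2 genes of GENCODE whose symbols are not rows here. TPI1 shared 30.1% of its words, and 2.03% of all its words with its pseudogene TPI1P2, a row of 0 to 6 counts. GPI shared 14.2%, with 179 genes, and 3.18% with other rows used here. GAPDH shared 13.8% and HK2 8.58%, with none of the rows. ENO1 shared 2.61% with the rows of EDARADD and ENO2, and PGK1 3.41% with 149 genes, 1.53% with rows. Summing TPI1 with the rows of its pseudogenes TPI1P2 and TPI1P3 left the count of members past the size rule as it was in the 7 comparisons. This sum could hardly change it, as TPI1 itself had 3470 counts or more in each library.

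Around the 10 genes, 45 other genes of glycolysis, its control and its side paths were listed, of which 33 passed the filter. On day 1, 3 of 33 were higher past the size rule and 0 lower (2.12% and 0.839% of all genes), with a median of −0.02. On day 10, 5 of 33 (15.2%) were higher, near the 14.4% of all genes, and 1 was lower, where 7.04% of genes were, with a median of −0.05. The medians of all genes were 0.00 and 0.02. The glucose transporter gene SLC2A3, PFKFB4 and PDK1 were higher past the rule on day 1. On day 1 and day 10, SLC2A3 was 2.3-fold and 19.9-fold higher, PFKFB4 3.38-fold and 3.5-fold, and PDK1 2.1-fold and 1.3-fold. PFKFB4 makes an activator of phosphofructokinase, and PDK1 holds pyruvate back from oxidation in mitochondria. SLC2A3 and PFKFB4 were also past the rule on day 10, as were SLC2A1 at 1.15 (1.08 to 1.21), the lactate transporter gene SLC16A1 at 1.26 (0.71 to 1.95, from 34 and 72 counts) and ENO3. In the edgeR test SLC2A3 and PFKFB4 rose (adjusted p = 0.000619 for each), 2 of 33, where 0.899% of genes rose.

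Among the 7 measured genes of the remaining steps, none passed the size rule on day 1 or day 10. PGAM1, the phosphoglycerate mutase, had 6253 and 9696 counts on day 1 and 6762 and 3709 on day 10, which is 0.58 (0.53 to 0.62) and −0.63 (−0.69 to −0.58), the same pair of signs as GPI and GAPDH. LDHA, which turns pyruvate into lactate, differed by 0.97 and 0.62, and LDHB by −0.24 and −0.83, below 0 on both days. None of the 7 pentose phosphate genes was above 0 on day 1 and 1 was on day 10, with medians of −0.28 and −0.51. TALDO1, the transaldolase, was lower past the rule on day 10 at −1.08 (−1.21 to −0.95), but not with library totals (−0.95) or the 5 CPM filter (−0.997). None of these list genes fell in the edgeR test.

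**Figure D4:**
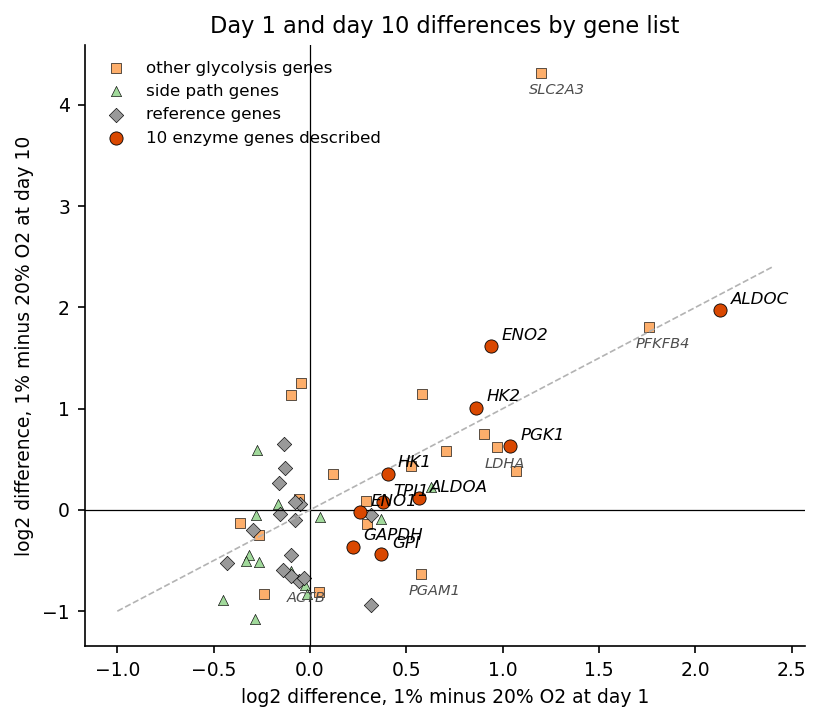
Log2 difference at day 10 (y axis) against that at day 1 (x axis) for the 10 genes (large circles), 33 listed genes of glycolysis and its control or side paths and 16 reference genes, with a dashed line of equality. ALDOC, ENO2 and PFKFB4 lie at the upper right, SLC2A3 at the top (4.32), and GPI and GAPDH lie right of 0 on the x axis and below 0 on the y axis.

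As GAPDH and PGK1 serve as reference genes, 16 other reference genes were set beside them. Across the 6 pairs of libraries, HPRT1, a purine salvage enzyme, passed the size rule once, at −1.02 between the days at 1% O2, and the other 15 never did. Their medians were −0.10 on day 1 and −0.15 on day 10, and their differences on day 10 ran from −0.93 (HPRT1) to 0.65 (RPL13A). ACTB, the actin gene, differed by −0.05 and −0.70, PPIA, cyclophilin A, by −0.10 and −0.44, and TBP, the TATA-binding protein, by −0.10 and −0.66. GAPDH at −0.36 on day 10 thus lay within the range of these genes. Within libraries, the log2 ratio of GAPDH over ACTB was higher at 1% O2 by 0.28 on day 1 and 0.34 on day 10, although GAPDH on its own was lower on day 10. Over PPIA the GAPDH ratio was higher by 0.32 and 0.08, and over TBP by 0.32 and 0.30. ENO2 relative to GAPDH was higher by 0.72 and 1.98, and relative to ACTB by 1.00 and 2.32. No reference gene rose or fell in the edgeR test.

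The genes most like an isozyme in profile were those with the smallest distance between log2 CPM values, each centred on its own mean over the 5 libraries, among 11685 genes with at least 5 CPM in 1 library or more. For HK2 these were PFKFB3, which encodes an enzyme that makes an activator of phosphofructokinase (distance 0.24), and C4orf3 (0.25). For ENO2 they were KCTD11 (0.24) and PPP1R3C (0.24), which targets a protein phosphatase to glycogen. For ALDOC they were LOC154761 (0.24, from 8 to 67 counts) and TCAF2 (0.53). HK1 was closest to ESRP2 (0.10) and PAQR7 (0.125), ALDOA to RNF113A (0.12) and INAFM2 (0.16), and ENO1 to TFRC (0.08) and LOC730101 (0.08). Outside this rule, and chosen after its values were seen, LDHA was the nearest gene to PGK1 (0.06), and among the members ALDOA and TPI1 were nearest to each other (0.18). With 5 libraries such likeness is a description.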

How the data were processed

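RNA was measured in 5 libraries, 1 per condition, made with an mRNA kit per the labels' protocols. The tools named are RSEM 1.2.15, edgeR and Bowtie2 2.1.0, and the build is hg38, per the submitters' processing notes. For annotation and strand the setting is not given in the sources used here. The authors deposited expected counts per gene symbol (3.58% to 4.09% of values not whole) and, in a second table, a normalized signal. Read as CPM with TMM factors, that signal gave whole reads for 100% of values (within 0.01), equal to the rounded counts for 99.9% or more, and edgeR on those reads called 117 genes higher and 13 lower. Of the symbols, 28 had become dates.

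Expected counts were rounded. Genes with at least 1 CPM in 1 library or more were kept, TMM factors (0.965 to 1.07) were computed with edgeR 4.0.16 in R 4.3.3, and log2 CPM used a prior count of 2. The oxygen test kept genes with at least 1 CPM in 2 of 4 libraries. DESeq2 1.42.0 and limma 3.58.1 (voom) were alternatives. The edgeR test was also run on simulated data with no day effect, the same oxygen change on both days and a dispersion below the 0.048 fitted here. That run cannot show how the test behaves where the oxygen change differs between the days, as in these libraries. With 1 library per oxygen level and day, the main oxygen test takes its spread from how oxygen differences vary between the days, not from replicates. Libraries may also not be independent cultures, so p-values here reflect only how these libraries vary, part of which may be technical. Members and lists were chosen with earlier results of these data known. Named genes were the 10 members, listed genes past a threshold, fixed reference genes, pseudogene rows and the 2 nearest profiles of each isozyme. Transcript lengths, coordinates and shared words came from GENCODE 29, and promoters (10 of 10 members matched) from a RefSeq table. Per-length levels depend on the transcript chosen. No protein sequence was used here.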

Additional observations from a re-analysis of the deposited data

Results flagged for a closer look

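GPI and GAPDH were higher at 1% O2 on day 1 and lower on day 10, with counting intervals that exclude 0 on each day. Among 2552 genes with a mean of at least 100 CPM, the median size of the difference was 0.12 on day 1 and 0.46 on day 10. The GAPDH differences of day 10 over ACTB (0.34), PPIA (0.08) and TBP (0.30) were above 0. The sign for GAPDH on day 10 thus depended on what it was set against. The chronic minus acute log2 difference was −0.80 (−0.88 to −0.72) for GPI and −0.58 (−0.62 to −0.55) for GAPDH. With 1 library per condition the difference between the days was not tested. The shift of the whole library at day 10 was small with TMM factors, with a median of 0.02 over all genes, and 0.14 with library totals. For GPI 89.4% of genes had a higher chronic minus acute difference, and for GAPDH 81.3%.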

How the results depend on the processing

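For each member and each of 7 comparisons, 7 alternatives gave 490 values in all: 401 lay within the counting interval, 89 outside it, none of the differences past the size rule changed sign, and the largest shift was 0.15. Signs changed in 7 values near 0, all of ENO1 (chronic), GAPDH (reoxygenated minus 1% O2) and HK1 (chronic minus acute, −0.04; 0.08 with library totals). Library totals shifted the day 10 median of all genes to 0.14. Summed pseudogene rows, among the 7 alternatives, could hardly move any of the 490 values, as only TPI1 had such rows. All 18 alternative values of the isozyme log2 ratios lay within their intervals, but these alternatives could hardly move them. They were the deposited normalized values, where the scale of a library cancels in a ratio, and summed pseudogene rows, which only TPI1 had. Between the days at 1% O2, ENO2 (0.98) made 1 member higher past the size rule with library totals (1.12), DESeq2 size factors (1.01) and the 5 CPM filter (1.05), against 0. Listed pathway genes lower on day 10 (TALDO1) numbered 0 with library totals and 0 with the 5 CPM filter, against 1, and with no filter 1 was lower on day 1, against 0. In the oxygen test 117 genes rose and 13 fell; the counts were 47 and 2 with DESeq2, 202 and 22 with limma-voom, 25 and 2 with library totals, 0 and 0 without the day term (462 at an unadjusted p under 0.05), 237 and 44 with no filter, and 28 and 1 with the 5 CPM filter. Members that rose, 2 in the main test, numbered 0 without the day term. They numbered 1 (ALDOC) with library totals and 1 (ALDOC) with the 5 CPM filter. Listed pathway genes that rose, also 2, numbered 1 with DESeq2, library totals and the 5 CPM filter each, and 0 without the day term. Leaving out 1 library gave 0 to 2028 genes that rose and 0 to 2197 that fell, 0 to 5 members that rose, 0 to 8 pathway genes that rose and 0 to 9 that fell, and 0 to 6 reference genes that fell; the highest counts came without 1% O2 at day 1. The causes were not tested.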
